A study of Gallus gallus with 10 samples.

Results

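The hnRNP and splicing factor genes described here encode the proteins that package nascent RNA and recognise splice sites. They were chosen by gene symbol in the platform annotation, by the prefixes HNRNP, SRSF, SF3A, SF3B, U2AF and SNRP, leaving out HNRNPK and its W relative HNRNPKL. Where a gene had several probe sets, the one of highest mean log2 intensity over all 10 arrays stood for it. This gave 40 genes of the 13009 with a symbol of their own on the array, namely 11 hnRNP, 11 SRSF, 7 SF3A or SF3B, 1 U2AF and 10 SNRP genes. Of these, 39 passed the filter on dim probe sets, which left out the lowest 40% of probe sets by mean.

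Total RNA of whole hearts of chicken (Gallus gallus) embryos was measured on 10 single-colour arrays, 5 hybridised with pools of male RNA and 5 with pools of female RNA. No treatment beyond tissue harvest is named, and the 5 pools of a sex are called A to E by letters in the labels. Strain, age and embryos per pool are not stated. A pool averages over its embryos, so differences between embryos cannot be seen. All p-values rest on the spread between pools alone, and that spread may be technical. In birds males carry a pair of Z chromosomes and females carry a Z and a W, so the design asks which genes differ between the sexes in the heart.

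Removal of introns starts when the U1 particle, which carries SNRPC, binds the start of an intron, and when U2AF and then the U2 particle with the SF3A and SF3B complexes bind its end. SNRP genes encode the Sm proteins, which form a ring on spliceosomal RNAs, and proteins specific to U1 or U2. SR proteins of the SRSF genes mostly favour the use of nearby splice sites, while hnRNPs coat transcripts and often oppose it. In mice, loss of Srsf1, Srsf2 or Hnrnpu from heart muscle damages the heart, and Srsf10 is needed for heart development.

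Array medians lay between 605 and 735 intensity units, and correlations between arrays lay between 0.946 and 0.971 over the tested probe sets (log2). On each array the median Z gene deviated from its own mean over all arrays by 0.21 to 0.23 (log2) in males and by -0.23 to -0.17 in females, so the Z genes separated the pools by their labelled sex. All 11 measured markers of heart muscle passed the filter, with a summed intensity of 1534710 to 1983340 in males and 1595810 to 1968510 in females. The 48 tested markers were of heart muscle, endothelium, fibroblasts, epicardium, smooth muscle, blood, nerve and liver. Of these markers, limma called 0 and 5 had an unadjusted p under 0.05. The shares were 2.23% and 10% over all tested genes, and 0.164% and 7.25% over autosomal genes. The summed intensities of the sexes overlapped in each list. The 3′ over 5′ ratio of actin, a measure of RNA integrity, was 1.55 to 1.76 in males and 1.46 to 1.76 in females.

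No sex difference was called for any splicing factor gene, and for 33 of the 39 tested genes the 95% interval kept the male level within 1.2-fold of the female level. At a limma adjusted p under 0.05 (5 pools per sex), 0 of 39 genes were called, where 2.23% of all 10282 tested genes and 0.164% of the 9763 autosomal genes were. The autosomal share was 0.0307% for male-higher and 0.133% for female-higher calls. In whole hearts, fewer cells that express a gene and less RNA in each cell cannot be told apart. At an unadjusted p under 0.05 there were 2 genes, SNRPD2 and SF3B4, both with lower values in males, against 10% of all genes and 7.25% of autosomal genes. For none of the 40 genes did all pools of either sex lie above all pools of the other, which was the case for 1.61% of autosomal genes (3.91% of all). These shares are too low for a count of 0 among 39 genes to set them apart from other autosomal genes.

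All 40 genes lie on autosomes in the GRCg7b RefSeq gene table, spread over 22 chromosomes. That table lists 44 protein-coding genes with these prefixes besides HNRNPK and HNRNPKL, and 0 of them are on Z or W. HNRNPA3, HNRNPC, HNRNPUL1 and SF3A2 are in the table but were not analysed here. A comparison of Z-linked with autosomal genes within these families is therefore not possible, and Z-linked splicing genes from other families are described further on. Chromosome 3 holds 7 of the genes and chromosome 23 holds 4. HNRNPD and HNRNPDL are immediate neighbours on chromosome 4.

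Each ratio is the male mean minus the female mean of log2(intensity + 16). The median over the 39 genes was -0.01, with an interquartile range of -0.06 to 0.03, against a median of -0.03 and a range of -0.12 to 0.06 over all autosomal genes. A ratio within 0.1 of 0 was found for 34 of the 39 genes (87.2%) and for 53.0% of autosomal genes. The splicing factor genes were read through brighter probe sets, with a median intensity of 25532 against 3208, and dim probe sets spread more, so these shares are not at matched level. The 95% interval of the ratio lay within 1.5-fold in either direction for 36 of the 39 genes. For 38 of the 39 it lay below 0.40, the median ratio of all Z genes. The exception was SNRPB2.

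**Figure D1:**
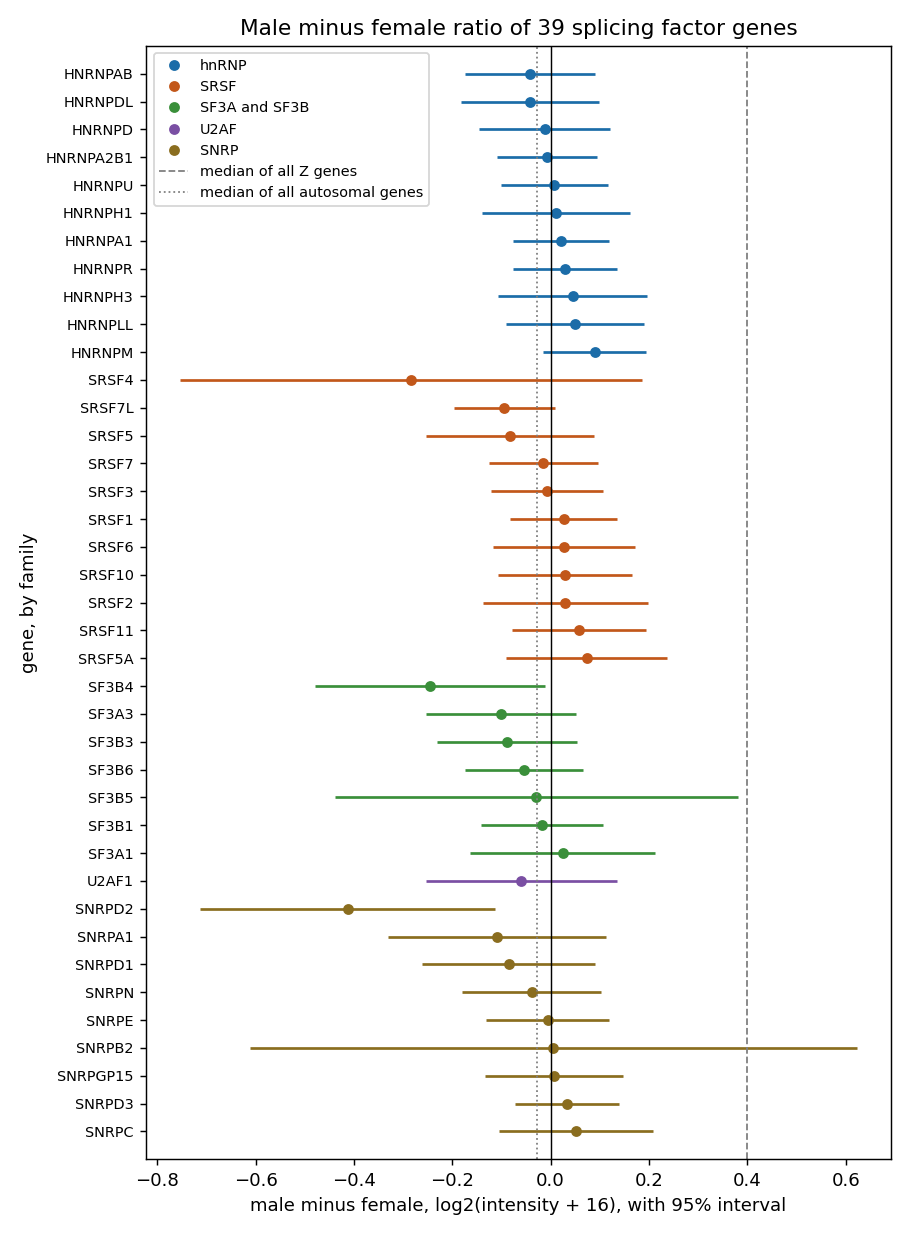
Ratio of male to female pools, in log2 units of intensity + 16 (horizontal axis), of the 39 tested genes, grouped by family and ordered by ratio, with points for estimates and lines for 95% intervals (n = 5 pools per sex). Most points lie within 0.1 of 0, the intervals of SF3B4 and SNRPD2 lie below 0 and those of 38 genes end below the dashed median of all Z genes.

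The 11 hnRNP genes had the narrowest range of ratios among the 4 families with several genes, from -0.04 to 0.09, with a median of 0.01 and 7 above 0. The families were not compared at matched brightness. All 11 hnRNP genes had a mean intensity of 3000 or more. SRSF4, SF3B4 and SNRPD2, at the low ends of the other ranges, had dimmer probe sets. At other tested probe sets of hnRNP genes, ratios ran from -0.21 to 0.31. HNRNPM, a regulator of alternative splicing, had the largest ratio of the family. Its intensity in males A to E was 26874, 27494, 26653, 28477 and 27516, and in females A to E it was 24797, 26849, 26998, 25485 and 24647. Males tended to lie above females, but males A and C lay within the female range. The ratio was 0.09 ± 0.05 (SE), a fold of 1.06 with a 95% interval of 0.990 to 1.14 (limma adjusted p = 0.632).

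HNRNPA2B1, a relative of HNRNPA1 that binds and sorts messenger RNAs, differed least in this family at the chosen probe sets. Its intensity in males was 64989, 60582, 60450, 58438 and 61669, and in females it was 63463, 61990, 63316, 57919 and 60988. The sexes covered almost the same range, and in both the D pool was lowest. Its fold of 0.995 had a 95% interval of 0.927 to 1.07. Other tested probe sets of HNRNPA2B1 had ratios of 0.09, 0.06 and 0.07, uncalled. HNRNPA1, which represses splice sites in many transcripts, had a ratio of 0.02 ± 0.05. HNRNPU, a chromatin-associated scaffold protein, stood at 0.01 ± 0.05.

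HNRNPD, which controls the decay of messages with AU-rich elements, averaged 40825 ± 2647 (SD) in the 5 male pools and 41189 ± 3176 in the 5 female pools. Its neighbour and relative HNRNPDL averaged 33413 ± 2502 and 34397 ± 2667. Their ratios were -0.01 ± 0.06 and -0.04 ± 0.07. HNRNPH1 and HNRNPH3, which bind runs of G, had ratios of 0.01 ± 0.07 and 0.04 ± 0.07. Other tested probe sets were at -0.02 and -0.08 for HNRNPH1 and at 0.04 and 0.13 for HNRNPH3, uncalled. HNRNPLL, known in human and mouse lymphocytes for its action on CD45 splicing, was at 0.05 ± 0.07, and HNRNPR was at 0.03 ± 0.05. HNRNPAB, at -0.04 ± 0.06, completes the family.

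Of the 11 SRSF genes, 6 had ratios above 0 and 5 below, with a median of 0.03. SRSF7L, a relative of SRSF7 near it on chromosome 3, was measured in males at 43592, 44010, 41794, 44312 and 41811. In females it was measured at 44137, 46346, 45108, 49553 and 45048. Females were the higher, apart from female A, which lay just below male D. The ratio of -0.09 ± 0.05 did not pass (limma adjusted p = 0.594), and its fold of 0.937 had a 95% interval of 0.873 to 1.01. SRSF7 itself, an SR protein that also takes part in export of messages, was at -0.01 ± 0.05.

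SRSF4 had the ratio farthest from 0 in the family and one of the dimmest probe sets. Its intensity in males was 737, 563, 694, 633 and 659, and in females it was 969, 657, 1231, 677 and 617. Females A and C lay above every male pool and the other 3 within the male range. The ratio was -0.28 ± 0.22 (limma adjusted p = 0.777), with a 95% interval of the fold from 0.593 to 1.14, so a moderate difference was not detectable for this gene. Without female C the ratio of SRSF4 was -0.13 (limma adjusted p = 0.911).

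The SR genes named above for roles in the mouse heart, SRSF1, SRSF2 and SRSF10, differed little between the sexes. SRSF1, measured at 64460, 61889, 56687, 58147 and 57918 in males and 62250, 60234, 57319, 57490 and 56273 in females, had a fold of 1.02 with a 95% interval of 0.944 to 1.10. Pool A was highest in both sexes and the ranges overlapped. SRSF2 averaged 26277 ± 2691 in males and 25727 ± 2446 in females, a fold of 1.02 with an interval of 0.909 to 1.15. SRSF10 averaged 27169 ± 1298 and 26696 ± 2260, a fold of 1.02 with an interval of 0.928 to 1.12. SRSF3 and SRSF6 were at -0.01 ± 0.05 and 0.03 ± 0.07, SRSF5 at -0.08 ± 0.08 (-0.01 without female E) and SRSF11 at 0.06 ± 0.06. SRSF5A, near SRSF5 on chromosome 5, was at 0.07 ± 0.08.

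In the SF3A and SF3B complexes, 6 of 7 genes had ratios below 0, with a median of -0.05. Of the 9763 autosomal genes, 5710 also lay below 0 and 41.5% above. None of the 7 genes was called. SF3B4, which binds RNA next to the branch point, was measured at 2441, 2949, 2997, 2477 and 2324 in males and 2534, 3188, 3277, 3206 and 3444 in females. Of the female pools, 4 lay above every male pool and female A lay among the males. The ratio was -0.25 ± 0.11, a fold of 0.843 with a 95% interval of 0.717 to 0.992 (unadjusted p = 0.0406, limma adjusted p = 0.517). Without female A it was -0.32 and still did not pass (limma adjusted p = 0.252). Under other processing or with single pools left out, the ratio ran from -0.32 to -0.19. The limma adjusted p reached 0.716, without male E. The other tested probe set of SF3B4, a dimmer one, was at -0.13 (limma adjusted p = 0.908).

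SF3B1, the large subunit that clamps around the branch point and is often mutated in human blood cancers, was measured at 39918, 39037, 38504, 34397 and 39341 in males and 41747, 39359, 39630, 35636 and 37090 in females. The D pool was lowest in both sexes. Its fold of 0.988 had a 95% interval of 0.907 to 1.08. SF3A3 was at -0.10 ± 0.07, and at -0.02 with the mean of its probe sets. SF3B3 was at -0.09 ± 0.07, with -0.05 to 0.40 at its other tested probe sets. SF3A1, at 0.02 ± 0.09, had the one ratio above 0, but its other probe set was at -0.11. SF3B6, which touches the branch point adenosine, was at -0.05 ± 0.06. The small subunit gene SF3B5 was read through a dim probe set and had a ratio of -0.03 ± 0.19.

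U2AF1 encodes the subunit of U2AF that reads the AG at the intron's end. Its intensity was 19033, 23290, 15671, 19339 and 22325 in males and 20794, 21638, 19352, 21956 and 19289 in females. Males spread more widely, from male C, the lowest of all pools, to male B, the highest. The ratio was -0.06 ± 0.09, a fold of 0.960 with a 95% interval of 0.839 to 1.10 (limma adjusted p = 0.901). SDs of the log2 value were 0.23 in males and 0.09 in females, and the difference between these SDs was not tested. At the other tested probe set of U2AF1 the SDs were 0.12 in males and 0.12 in females. The ratio there was 0.03, uncalled.

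Among the SNRP genes, 4 of the 9 tested had ratios above 0 and 5 below, with a median of -0.01. SNRPD2, which encodes a protein of the Sm ring, had the ratio farthest from 0 of all 39 genes. It was measured at 1571, 1297, 1359, 1332 and 1287 in males and 1554, 1967, 2145, 2144 and 1430 in females. Females B, C and D lay above all males, while females A and E lay within the male range. The ratio was -0.41 ± 0.14, a fold of 0.752 with a 95% interval of 0.610 to 0.925. It did not pass the adjustment over all probe sets (unadjusted p = 0.0104, limma adjusted p = 0.292), and its single probe set leaves no second measurement.

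At their chosen probe sets, the other tested genes of the Sm ring stood close to 0. SNRPD3 was measured at 29880, 29068, 31411, 28439 and 29518 in males and 28714, 29528, 30169, 27274 and 29294 in females, with a fold of 1.02 and a 95% interval of 0.951 to 1.10. The sexes overlapped. SNRPE, SNRPD1 and SNRPN, the last a relative of the Sm protein B gene, had ratios of -0.01 ± 0.06, -0.09 ± 0.08 and -0.04 ± 0.07. SNRPGP15, named after the Sm protein G, was at 0.01 ± 0.07, but its other tested probe sets were at -0.22 and -0.32, uncalled. SNRPF was the 1 gene below the filter, with intensities of 158 to 389 in males and 157 to 325 in females, and was not tested.

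Of the particle-specific genes, SNRPC of U1 was measured at 52881, 43020, 51482, 50886 and 47131 in males and 44953, 53740, 49778, 46803 and 41723 in females. Both sexes held high and low pools, and the fold of 1.04 had a 95% interval of 0.930 to 1.15. The ratio of SNRPA1, a U2 protein gene, was -0.11 ± 0.10, and -0.02 without female D. Other processing or left-out pools moved it as far as -0.17. Other tested probe sets of SNRPA1, both dim, were at -0.14 and -0.13, uncalled. SNRPB2 of U2 had the widest interval of all, with intensities of 456 to 1199 in males and 576 to 1282 in females and a ratio of 0.01 ± 0.29, with a 95% interval of the fold from 0.655 to 1.54. No statement on a sex difference of SNRPB2 can be made at this precision.

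**Figure D2:**
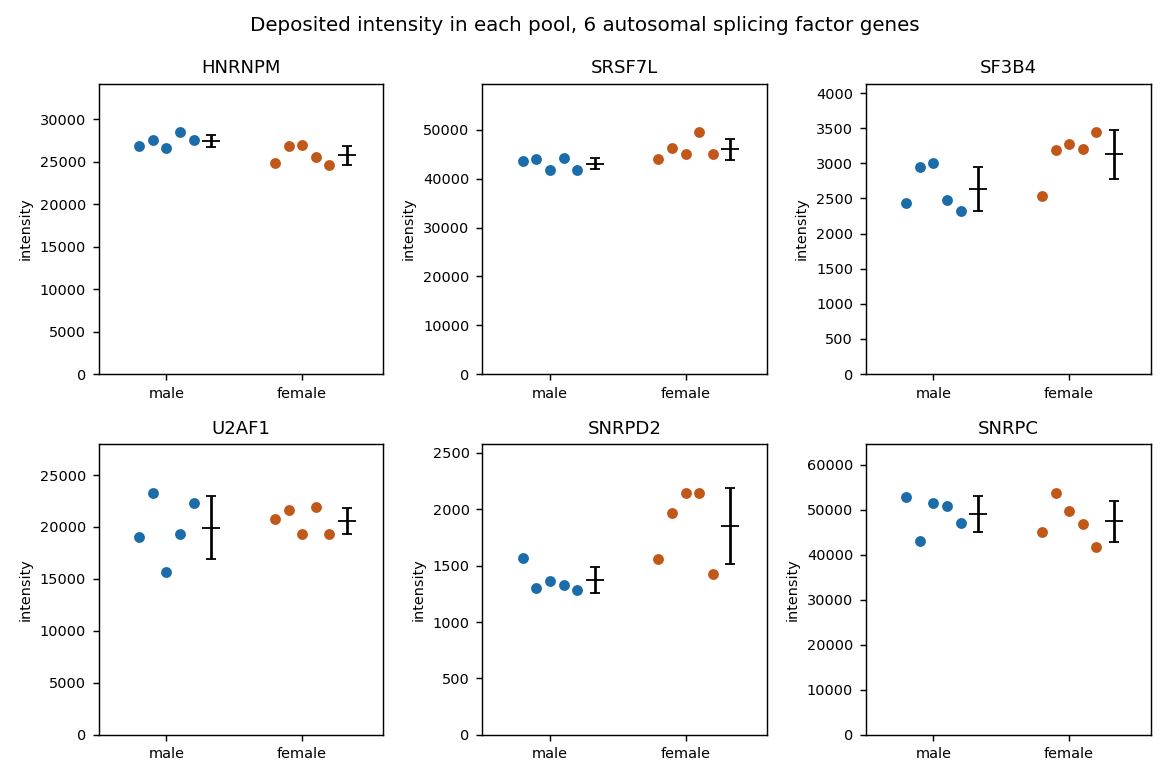
Deposited intensity (vertical axis, from 0) in each of the 5 male and 5 female pools, in the order A to E from left to right, for 6 splicing factor genes, with the mean and SD beside the points. The sexes overlap for each gene, with SNRPD2 and SF3B4 tending higher and HNRNPM tending lower in females.

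Spread between pools followed the brightness of the probe set. The 5 genes with a mean intensity under 3000, SF3B4, SF3B5, SNRPB2, SNRPD2 and SRSF4, had within-sex SDs of 0.17 to 0.52 (log2), while the other 34 tested genes had SDs of 0.05 to 0.20 and a median of 0.10. Of the 33 genes with an interval within 1.2-fold, all belonged to the 34 brighter ones. Intensities of different probe sets depend on their probes, so these levels do not rank the genes by abundance.

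Further probe sets of the same genes gave no called difference. Of 95 tested probe sets, 0 were called (lowest limma adjusted p = 0.292), where 1.76% of all 23063 tested probe sets were, and 5 had an unadjusted p under 0.05, against 9.1% of all. These 5 belonged to SNRPD2 (ratio -0.41) and SF3B4 (-0.25), and, at probe sets other than the chosen ones, to HNRNPLL (0.24), SRSF5A (0.43) and HNRNPD (0.31). Of 28 genes with more than 1 tested probe set, 20 had probe sets on both sides of 0. Ratios ran from -0.22 to 0.24 over the 72 probe sets of intensity 3000 or more and from -0.41 to 0.43 over the 23 dimmer ones. HNRNPLL had values of 0.24 and 0.23 at the probe sets next to its brightest and -0.21 at the following one, where the brightest had 0.05.

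**Figure D3:**
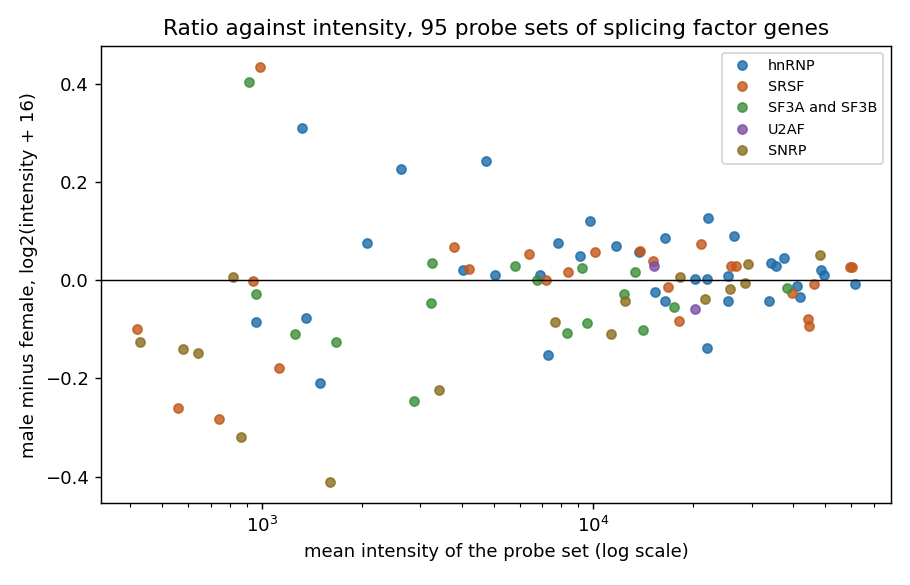
Ratio of male to female pools, in log2 units of intensity + 16 (vertical axis), against the mean intensity of the probe set over all pools (horizontal axis, log scale) for 95 tested probe sets, coloured by family. The 72 probe sets of intensity 3000 or more lie between -0.22 and 0.24 and the 23 dimmer ones between -0.41 and 0.43.

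Deviations of single pools from their sex mean were seldom shared by probe sets of a gene. Over the 10 arrays, which share their scaling, the median Pearson correlation of these deviations was 0.08 for 96 pairs of probe sets of the same gene. It was 0.07 for 167 pairs of genes of a family and 0.03 for 574 pairs of genes of different families. Per pool, the median deviation of the 11 hnRNP genes from their means ran from -0.04 to 0.04 in males and from -0.06 to 0.02 in females. The 11 SRSF genes ran from -0.04 to 0.10 and from -0.09 to 0.04, with male A highest and female D lowest. For the 7 SF3A and SF3B genes the ranges were -0.18 to 0.05 and -0.03 to 0.12, with male E lowest. The 9 SNRP genes ran from -0.03 to 0.09 and from -0.06 to 0.12. In each family the ranges of the sexes overlapped.

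**Figure D4:**
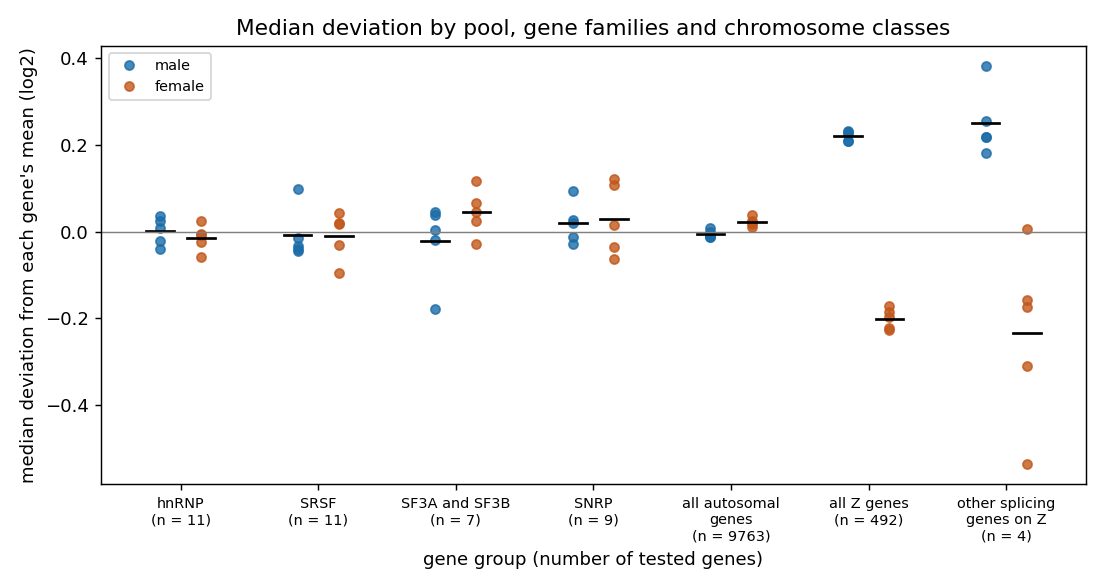
Median deviation of each gene group from the genes' own means over all pools (vertical axis, log2) in each male and female pool, with short lines for the means of 5 pools. Male and female pools overlap in each of the 4 splicing factor families plotted and lie apart for all 492 Z genes, at 0.21 to 0.23 and -0.23 to -0.17.

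Other genes of the splicing machinery were read from lists of further spliceosome genes and of splicing regulators. Of 56 tested further spliceosome genes, limma called 1 male-higher and 0 female-higher, with 3 at an unadjusted p under 0.05, where 1.99% and 0.233% of all genes were called in these directions. The median ratio was -0.04, and 19 of 56 lay above 0. Of 54 tested regulators, limma called 2 male-higher and 0 female-higher, with 6 at an unadjusted p under 0.05, a median of -0.02 and 20 above 0. The 3 called genes, CWC27, SREK1 and SMN, are on Z, where 40.9% of the 492 tested genes were called male-higher and 47.4% had pools that did not overlap. Not on Z were 55 of the tested spliceosome genes and 51 of the regulators, of which limma called 0 in each list, with 2 and 4 at an unadjusted p under 0.05. Of all autosomal genes, limma called 0.164%, and 7.25% had an unadjusted p under 0.05. The share called is too low for counts of 0 to set these lists apart from other autosomal genes.

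SREK1, an SR-related regulator of splice site choice, is on Z. It was measured at 25329, 26592, 29795, 25123 and 27095 in males and 19627, 18670, 19870, 15635 and 18714 in females. All male pools lay above all female pools, and the ratio was 0.54 ± 0.07, a fold of 1.45 with a 95% interval of 1.31 to 1.61 (limma adjusted p = 0.000291). At their chosen probe sets, the upper bounds of the 11 autosomal SRSF genes reached at most 1.18, that of SRSF5A. Dimmer probe sets had higher ones, such as 1.78 for SRSF5A, at a fold of 1.35 (limma adjusted p = 0.48). The difference between SREK1 and these genes was not tested.

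CWC27, a Z-linked cyclophilin-like protein of the activated spliceosome, was measured at 3315, 2867, 3694, 3734 and 3720 in males and 2166, 1392, 1963, 1082 and 2789 in females. The pools of the sexes did not overlap, though female E came close to male B. The ratio of CWC27 was 0.95 ± 0.20, a fold of 1.93 with a 95% interval of 1.43 to 2.59 (limma adjusted p = 0.0198). The call was lost without female B (0.86, limma adjusted p = 0.0631), male C (0.92, adjusted p = 0.0619), male D (0.92, adjusted p = 0.0578) or male E (0.92, adjusted p = 0.0605), and with no variance trend (adjusted p = 0.1).

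SMN encodes the survival motor neuron protein, which loads the Sm ring onto spliceosomal RNAs, and is on Z, whereas the 6 tested genes for Sm proteins described above are autosomal. It was measured at 16392, 14678, 13949, 14778 and 16106 in males and 12246, 12548, 12405, 13303 and 12374 in females. Each male pool lay above each female pool. The ratio of SMN was 0.27 ± 0.06, a fold of 1.21 with a 95% interval of 1.10 to 1.32 (limma adjusted p = 0.0267). Leaving out any of male A, male E and females A, B, C or E ended the call, at ratios of 0.24 to 0.27 (limma adjusted p = 0.0644 to 0.0932), as did a fit with no variance trend (adjusted p = 0.135).

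PTBP3, the fourth measured Z-linked gene of these lists and a relative of the polypyrimidine tract-binding protein gene, had a dim probe set. Its intensity was 426, 497, 392, 737 and 321 in males and 581, 202, 527, 409 and 584 in females, which overlapped widely, and its ratio was 0.08 ± 0.34 (limma adjusted p = 0.975).

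**Figure D5:**
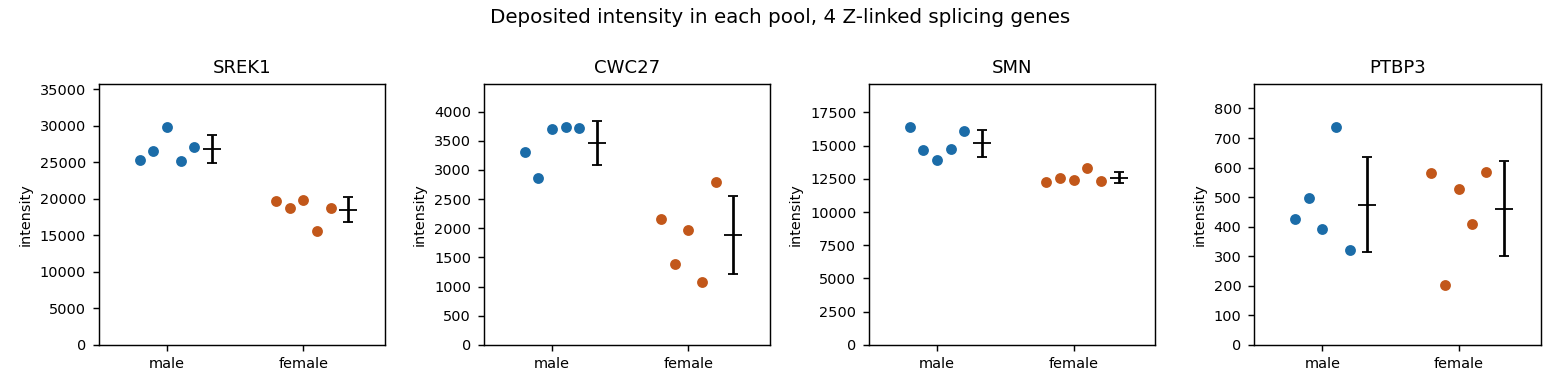
Deposited intensity (vertical axis, from 0) in each of the 5 male and 5 female pools, in the order A to E from left to right, for 4 Z-linked splicing genes, with the mean and SD beside the points. All male pools lie above all female pools for SREK1, CWC27 and SMN, and the sexes overlap for PTBP3.

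Among the autosomal genes of these lists, those with the ratios farthest from 0 were not called. The ratio of CHERP, a U2-associated protein gene on chromosome 28, was -0.39 ± 0.11 (limma adjusted p = 0.0993) and passed without female B, at -0.45 (limma adjusted p = 0.0487). With the mean of its probe sets it was at -0.08 (limma adjusted p = 0.891). The ratio of PRPF38B was 0.35 ± 0.13, with all male pools above all female pools (limma adjusted p = 0.326), and 0.12 with the mean of its probe sets (limma adjusted p = 0.852). Of the regulators, RBFOX1, which controls muscle and neural exons, was at -0.84 ± 0.47 and the RNA-binding protein gene PCBP2 at 0.40 ± 0.47, both with dim probe sets. Leaving out a single pool moved both values, to -0.36 for RBFOX1 without male A and to -0.07 for PCBP2 without female C.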

How the data were processed

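The authors deposited 1 linear intensity value per probe set and array; software and scaling are not stated in the labels, and detection calls were not used. The mean of the deposited values after trimming 2% at each end was 2500.5 to 2500.6 on every array. Of 38535 probe sets, 27178 carried 1 gene symbol in the platform annotation, which can be old, 177 carried several and 11180 were not listed; 1 probe set shared between SNRPGP15 and another gene was left out. Chromosomes came from the RefSeq gene table of GRCg7b. The value table names no build, so no coordinates are given.

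Values were analysed as log2(intensity + 16), leaving out 96 control probe sets and then the dimmest 40%. The sexes were compared by limma 3.58.1 (R 4.3.3; lmFit, eBayes with a variance trend), with Benjamini-Hochberg adjustment over all 23063 tested probe sets and a threshold of 0.05; the number of arrays limits the precision. The pseudocount understates differences of dim probe sets. Of the 39 chosen probe sets, 14 carry the suffix s and 2 the suffix x, which Affymetrix gives to probe sets that can match more than 1 transcript, so close relatives may share signal. The fit was tested on simulated data.

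Genes named were, by rule, the 3 of largest ratio in each family, all called or Z-linked genes and members listed for their roles; HNRNPAB, HNRNPDL, SRSF5A, SRSF11, SF3B5, SF3B6, SNRPB2 and SNRPGP15 are named so that each member is accounted for. From the lists of other splicing genes, those called, those on Z and the 3 of largest ratio in each list are described; PRMT5 was chosen after its values were seen. Members and lists were chosen with earlier results of these data known. Marker lists covered heart muscle, endothelium, fibroblasts, epicardium, smooth muscle, erythroid cells, leukocytes, neural crest and neurons, and liver; none of their tested genes was called.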

Additional observations from a re-analysis of the deposited data

Results flagged for a closer look

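In 80 groups of 5 pools, those of the named genes in each sex, 9 had a pool standing apart, with a gap to the nearest other pool above 0.71 of the group's range on the log2(intensity + 16) scale; chance alone flags about 1 in 20 such groups. In males, HNRNPD was at 45486 in pool C against 38982 to 40300 in the others, and SF3B1 was at 34397 in pool D against 38504 to 39918. Male A was apart for 4 genes, with SNRPD2 at 1571 against 1287 to 1359, SRSF3 at 51086 against 44316 to 45630, SRSF7 at 17941 against 16222 to 16664, and RBFOX1 at 62.1 against 322 to 531. In females, SF3B4 was at 2534 in pool A against 3188 to 3444, SRSF5 was at 22779 in pool E against 17028 to 18181, and SREK1 was at 15635 in pool D against 18670 to 19870. SREK1 passed without female D, at 0.48 (limma adjusted p = 0.000275), and leaving out single pools gave 0 calls among the named splicing factor genes. On linear intensities, an alternative chosen after seeing the data, 9 groups had such a pool and 8 of them were the same; RBFOX1 in male A no longer stood apart (gap of 0.555 of the range), and SMN did in female D, at 13303 against 12246 to 12548 (0.714).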

How the results depend on the processing

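Under the 22 alternatives, 10 of which leave out 1 array, limma called 0 of the splicing factor genes tested in each, as in the main result with 39; SNRPF was tested only with no filter, and SF3B5, SNRPB2 and SRSF4 fell out with the lowest 60% of probe sets. The lowest adjusted p was 0.129, for SNRPD2 without female E, and its ratio ran from -0.50 to -0.35. Ratios near 0 changed sign, uncalled, in 54 of the 681 alternative values of the tested splicing factor genes named by rule. These 54 values came from 18 of those genes. Outside this count, HNRNPDL, SF3B5, SNRPB2 and SNRPGP15 also had alternative ratios on both sides of 0. The median of the SNRP genes moved to -0.078 with the mean of each gene's probe sets. With the pool letter as a replicate block, 0 splicing factor genes, 1 further spliceosome gene and 1 regulator were called, SMN having lost the call (limma adjusted p = 0.059). The letters were not taken as pairs: same-letter pools of the sexes correlated in their deviations by 0.00245 to 0.207, and 4 of 5 male pools correlated best with their own letter. With no variance trend, 0 further spliceosome genes and 1 regulator were called higher in males. When 1 array was left out, the further spliceosome genes called numbered 0 to 1 higher in males and 0 to 1 higher in females (CHERP). The regulators called numbered 1 to 2 and 0 to 1 (PRMT5, at -0.35 without female A, limma adjusted p = 0.0469). In the main fit PRMT5 was at -0.30 and not called (limma adjusted p = 0.0857), with all female pools above all male pools. SREK1 was called under all 22 alternatives, with ratios of 0.48 to 0.56.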
